A study of Rattus norvegicus with 12 samples.

Results

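SD and FHH kidneys were compared as the pair of strains in the study that do not carry the PCK segment of chromosome 9, which holds the mutated Pkhd1 gene. SD is the outbred Sprague Dawley stock, from which PCK, a model of autosomal recessive polycystic kidney disease, was derived. The Fawn Hooded Hypertensive strain, FHH, is inbred and known for hypertension, protein in the urine and glomerular scarring that develop with age, and it is the background on which the congenic strain FHH.Pkhd1 was bred. The comparison used the 3 arrays titled SD and the 3 titled FHH, 6 of the 12 arrays in all. The 3 PCK and 3 FHH.Pkhd1 arrays served as a second pair of pools, on an SD-derived and the FHH background. They also added to the estimate of the spread between arrays.

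All rats were 30 days old and were fed the same diet, and neither strain had a treatment. RNA from both kidneys of 6 animals per strain was pooled and hybridized to 3 Affymetrix arrays, so the arrays of a strain are technical replicates of 1 pool. Every standard error (SE) and p-value below is therefore scaled to how far arrays of a pool differ and says nothing of how far animals differ. The SD pool also mixes the genotypes of an outbred stock. The sources used here do not state the sex of the animals. The Y-linked genes Eif2s3y (9.52, 9.61 and 9.84 on the SD arrays, against 9.57, 9.60 and 9.53 on the FHH arrays) and Uty were at similar levels in both pools, and the X inactivation transcript Xist stayed below the detection level on all 6 arrays.

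The kidney filters blood in the glomerulus and recovers most of the filtrate in the proximal tubule. Proximal tubule cells also take up organic anions and cations and conjugate drugs, steroids and bile acids with glucuronic acid, glutathione, sulfate or acetyl groups. The distal nephron sets the final salt and water balance, and with the renin-angiotensin system and the lipid mediators made from arachidonate it takes part in the control of blood pressure.

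Of 10891 genes tested, 361 (3.31%) were called, with 170 (1.56%) higher and 191 (1.75%) lower in SD. Calling a gene took a limma adjusted p below 0.05 together with at least a 1.5-fold difference. Without the fold limit 4038 genes (37.1%) passed. Signals are log2 values. The detection level, 5.75, was set at the 40th percentile of the 12 arrays' signals rather than at a measured background, and a gene was tested when its mean in at least 1 of the 4 pools reached it. The median difference of all tested genes was -0.04 on the log2 scale. Of the called genes, 114 differed by at least 2-fold and 15 by at least 4-fold, 11 of these higher and 4 lower in SD. Both pools were detected for 297 of the called genes. The arrays of the pools did not overlap for any of the 361, nor for 50.1% of all genes tested. Correlations were 0.9973 to 0.9985 between arrays of 1 pool and 0.9907 to 0.9926 between an SD and an FHH array.

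**Figure D1:**
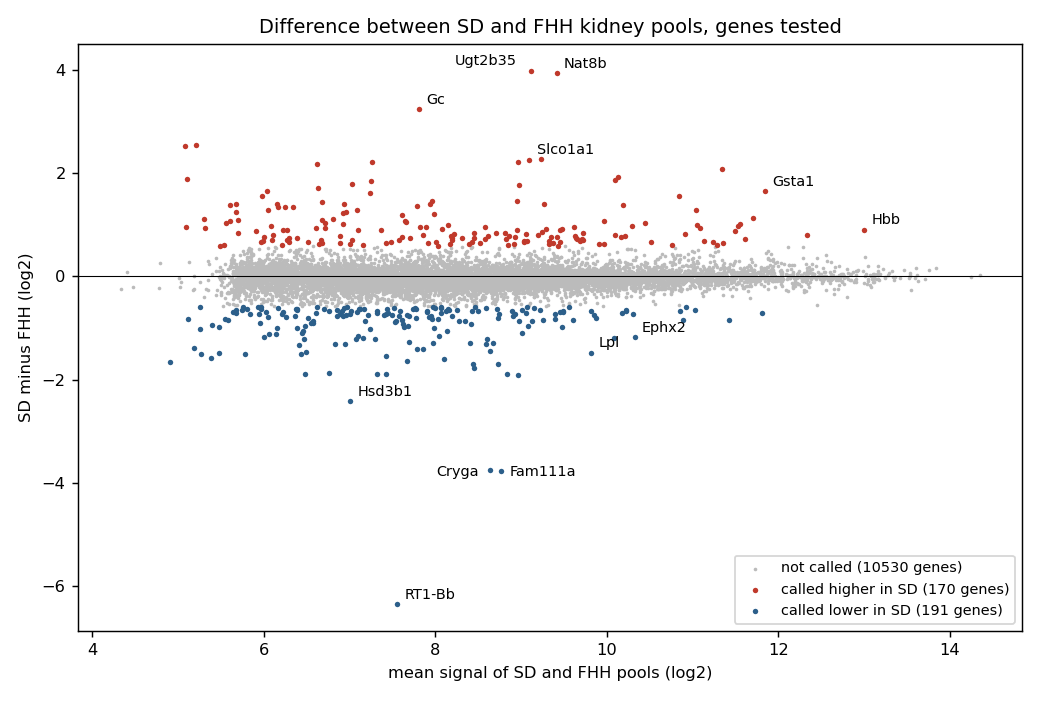
Difference SD minus FHH (log2, y axis) against the mean signal of both pools (log2, x axis) for the 10891 genes tested. The 170 genes called higher in SD are red, the 191 called lower are blue and the others grey, and RT1-Bb, at -6.34, lies furthest from 0.

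Labelling controls differed between the pools as well. The poly-A spike-ins, bacterial transcripts added before labelling, averaged 10.38, 10.48 and 10.53 on the SD arrays, against 11.08, 11.12 and 11.12 on the FHH arrays. Beta-actin gave a 3' minus 5' signal, which reflects RNA integrity and labelling, of 1.07, 1.12 and 1.12 on the SD arrays, against 1.40, 1.37 and 1.39 on the FHH arrays. That of GAPDH was -0.06, -0.01 and 0.00 on the SD arrays, against 0.12, 0.19 and 0.21 on the FHH arrays. For these 3 differences p = 0.1 by exact permutation, two-sided, and no smaller p can be reached with 3 arrays a pool. The hexokinase control differed by -0.02 (exact permutation p = 0.8) and the hybridization controls by -0.20 (exact permutation p = 0.5). The part of these differences in the gene results was not tested.

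Markers of the kidney were present in both pools. All 29 tested proximal tubule markers were above the detection level in SD and in FHH. None was called (0%, against 3.31% of all genes, in a list of few genes), with a median difference of 0.06 and 22 positive. The endocytic receptor megalin, Lrp2, was at 12.90, 12.84 and 12.86 in SD, against 12.74, 12.72 and 12.71 in FHH. The sulfate transporter Slc13a1 (0.48 ± 0.04, SE) and the urate transporter Slc17a3 (0.41 ± 0.04) had the largest differences of the list. Some enzymes and transporters that conjugate and move foreign compounds had larger differences than any of these markers. Most tested members of their lists were not called.

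Ugt2b35, a glucuronosyltransferase that couples steroids and drugs to glucuronic acid, had the largest difference higher in SD. Its signal was 11.11, 11.09 and 11.11 on the SD arrays, against 7.37, 7.04 and 6.96 on the FHH arrays. SD was thus 15.8-fold higher (3.98 ± 0.10, SE, limma adjusted p = 5e-11), and the groups lay far apart. Its neighbour on chromosome 14, Ugt2b7, of the same enzyme family, was also higher in SD, at 6.35, 6.45 and 6.2 against 5.56, 5.56 and 5.82 in FHH (0.69 ± 0.12, limma adjusted p = 0.000697). The FHH values of Ugt2b7 lie around the detection level. The sequences around the starts of this pair are given because the genes are neighbours, belong to 1 family and moved the same way. Capitals mark runs of at least 20 bases found in both windows, each of which runs from 250 bases before the annotated start (RefSeq, GRCr8, + strand).
Ugt2b35, chr14:21208191-21208490: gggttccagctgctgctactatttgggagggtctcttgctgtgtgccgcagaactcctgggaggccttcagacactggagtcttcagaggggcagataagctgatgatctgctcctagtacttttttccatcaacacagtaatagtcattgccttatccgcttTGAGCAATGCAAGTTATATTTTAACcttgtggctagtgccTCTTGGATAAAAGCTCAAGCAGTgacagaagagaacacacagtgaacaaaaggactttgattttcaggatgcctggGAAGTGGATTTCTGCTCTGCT
Ugt2b7, chr14:21251285-21251584: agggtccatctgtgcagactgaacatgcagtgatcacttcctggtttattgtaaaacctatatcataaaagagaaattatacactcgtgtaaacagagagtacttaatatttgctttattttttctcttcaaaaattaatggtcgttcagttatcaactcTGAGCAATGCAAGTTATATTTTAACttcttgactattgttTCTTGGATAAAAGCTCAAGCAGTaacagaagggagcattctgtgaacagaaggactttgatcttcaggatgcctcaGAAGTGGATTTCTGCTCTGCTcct
The windows matched at 208 of 312 aligned positions (66.7%). The longest shared run, of 25 bases, was found on either strand in 7 of 33469 windows of the same length (0.0209%), and those of 23 and 21 bases in 2 each (0.00598%), which are these windows themselves. These are sequences of the reference strain, and the sequences of SD and FHH were not analysed here.

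Nat8b, an N-acetyltransferase of the kidney and liver, was 15.3-fold higher in SD, at 11.38, 11.35 and 11.43 against 7.45, 7.48 and 7.42 in FHH (3.94 ± 0.04, limma adjusted p = 4.76e-15). Nat8f5, of the same family, was at 9.95, 9.94 and 9.92 in SD, against 9.07, 8.92 and 9.07 in FHH (0.92 ± 0.05). The sulfotransferase Sult1a1 was higher by 0.66 ± 0.05. In all, 5 of the 15 tested genes (33.3%) of glucuronidation, sulfation and acetylation were higher and none lower in SD, against 3.31% of all genes called. Their median was 0.16 against -0.04 for all tested genes, and 14 of the 15 were detected in both pools.

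Slco1a1, which carries organic anions and steroid conjugates across the tubule membrane, was 4.78-fold higher in SD. Its signal was 10.19, 10.21 and 10.28 in SD, against 7.97, 7.98 and 7.96 in FHH (2.26 ± 0.06, limma adjusted p = 5.76e-11). Its neighbour Slco1a3, singled out after its values were seen, was also higher (1.04 ± 0.04). The organic cation transporter Slc22a2 was at 10.57, 10.52 and 10.55 in SD, against 9.79, 9.85 and 9.73 in FHH (0.76 ± 0.06). The prostaglandin transporter Slco2a1 (-0.87 ± 0.04) and Slc22a13 (-0.86 ± 0.11) were lower in SD. The list of organic anion and cation transporters had 2 members higher and 2 lower of 23 tested, all detected in both pools. Its median was -0.03, and 17.4% were called, against 3.31% of all genes. The main anion uptake transporter of the tubule, Slc22a6, differed by 0.12 ± 0.04 and was not called.

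Aldo-keto reductases, which reduce steroids, prostaglandins and aldehydes, were called in both directions. Akr1c1 was at 10.10, 10.03 and 10.06 in SD, against 7.91, 7.80 and 7.86 in FHH, a 4.61-fold difference (2.21 ± 0.04, limma adjusted p = 5.85e-12). Akr1c13 was 3.64-fold higher in SD (1.86 ± 0.06), and AKR1C3l1, which lies between them on chromosome 17 and was singled out after its values were seen, was higher by 0.82 ± 0.05. The Akr1b group on chromosome 4 did not share a direction. Akr1b8 was at 6.62, 6.18 and 6.34 in SD, against 8.34, 8.24 and 8.24 in FHH (-1.89 ± 0.09), and Akr1b7, abundant in the adrenal cortex, gave -1.65 ± 0.05 and was called lower with the means of both pools below the detection level, while Akr1b10 between them was higher in SD (0.62 ± 0.09). Among short-chain reductases, Dhrs7l1 was 4.86-fold higher in SD (2.28 ± 0.07). Hsd11b1, which regenerates active glucocorticoid and was among the most abundant called genes, was at 12.74 on each SD array, against 11.94, 11.93 and 11.94 in FHH (0.80 ± 0.03). Hsd17b11 was lower in SD (-0.65 ± 0.03). The list had 5 higher and 3 lower of 26 tested (30.8% called, against 3.31% of all genes), with a median of 0.02.

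Of 30 tested genes of glutathione metabolism and the Nrf2 response, 5 were higher and 1 lower in SD, with a median of 0.18 and 23 positive. The called share was 20%, against 3.31% of all genes. The glutathione transferase Gsta1, the most strongly changed, was at 12.64, 12.69 and 12.67 in SD, against 11.05, 10.98 and 11.04 in FHH, or 3.13-fold higher (1.65 ± 0.03, limma adjusted p = 5.96e-12). Its chromosome 9 neighbour Gsta3 went the other way, with a mean of 8.99 in SD, against 9.97 in FHH (-0.99 ± 0.06). Gstm1 (0.78 ± 0.05), Gstt2 (0.77 ± 0.09) and the sulfiredoxin Srxn1 (0.66 ± 0.04) were higher. When a gene's probe sets were averaged, Gstt2 (0.52) and Srxn1 (0.48) were not called. The other detected probe set of Srxn1 gave 0.78, and another, below the detection level, gave 0.00. Members of the Ugt2b, Akr1c, Gst, Slco1a and Nat8 families are close in sequence, and whether a probe set reads 1 member alone was not tested.

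**Figure D2:**
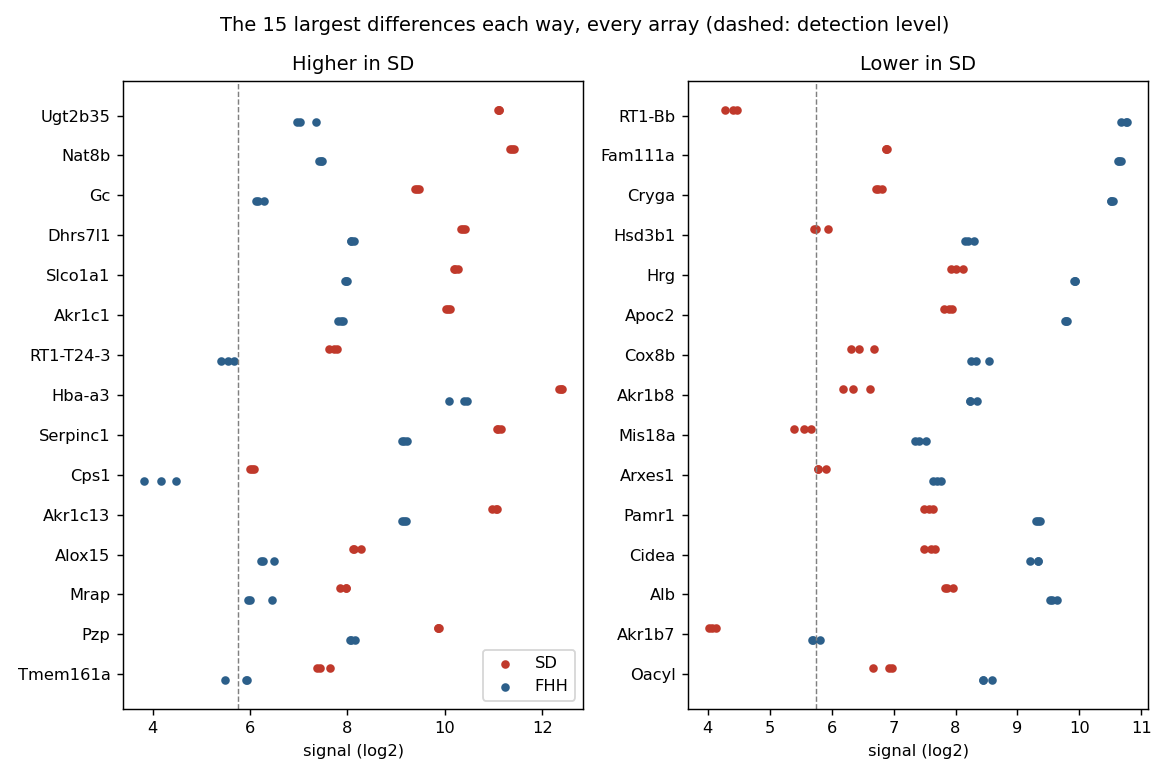
Log2 signal on every array (x axis) of the 15 genes with the largest differences higher in SD (left) and lower in SD (right), with 3 SD arrays in red above 3 FHH arrays in blue. For most genes the arrays of a pool stand close together, with more spread at some low signals, such as Cps1 in FHH (4.48, 3.83 and 4.18). The dashed line is the detection level of 5.75.

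Enzymes of arachidonate metabolism were called in both directions. Alox15, a lipoxygenase, was at 8.28, 8.13 and 8.11 in SD, against 6.23, 6.50 and 6.27 in FHH, 3.58-fold higher (1.84 ± 0.07, limma adjusted p = 1.97e-09). Cyp4a8, a fatty acid omega-hydroxylase of the family that makes the vasoconstrictor 20-HETE, was at 12.24, 12.29 and 12.28 in SD, against 11.19, 11.14 and 11.09 in FHH (1.13 ± 0.05), and its other detected probe set gave 1.23. The other abundant hydroxylase Cyp4a3 differed by -0.02 ± 0.03 and the epoxygenase Cyp2c23 by 0.04 ± 0.03, neither called. Cyp2c11, which is mainly a liver enzyme, was higher by 0.93 ± 0.10. Its SD arrays, at 5.87, 5.75 and 5.71, lay around the detection level and its FHH arrays below it. Lower in SD was the soluble epoxide hydrolase Ephx2, which breaks down vasodilator epoxides, at 9.77, 9.73 and 9.71 against 10.94, 10.91 and 10.90 in FHH (-1.18 ± 0.04, limma adjusted p = 5.2e-10). The prostaglandin E receptor Ptger1 was lower (-1.58 ± 0.09), with its SD arrays at 4.69, 4.63 and 4.47, below the detection level, against 6.31, 6.00 and 6.22 in FHH. Of the 25 genes tested, 5 were higher and 2 lower (28% called, against 3.31% of all genes), with a median of -0.02.

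Among other genes of blood pressure control the called share was 0% for distal salt transport, 10% for the renin-angiotensin system and 14.3% for kallikrein, natriuretic and vasoactive genes, against 3.31% of all genes, and these lists hold few genes. Of 22 tested genes of salt transport in the distal nephron none was called (median -0.13, 17 negative), and the largest differences were those of the mineralocorticoid receptor Nr3c2 (-0.40 ± 0.08) and the sodium channel subunit Scnn1g, at 8.40, 8.42 and 8.35 in SD, against 8.76, 8.79 and 8.78 in FHH (-0.39 ± 0.04). In the renin-angiotensin system 1 of 10 was called. It was Agtrap, which binds the angiotensin type 1 receptor and lowers its presence at the cell surface, at 9.69, 9.70 and 9.64 in SD, against 8.21, 8.21 and 8.25 in FHH (1.45 ± 0.04, limma adjusted p = 9.37e-11). Its other detected probe set gave 2.73 and the mean of both 2.09. Angiotensinogen, Agt, differed by 0.53 ± 0.07 and the receptor Agtr1a by under 0.1, neither called. Among kallikrein, natriuretic and vasoactive genes 2 of 14 were called, both higher in SD. The tissue kallikrein Klk1c4 was at 8.63, 8.67 and 8.79 in SD, against 7.30, 7.17 and 7.23 in FHH (1.46 ± 0.08). The endothelial nitric oxide synthase Nos3 was at 6.50, 6.36 and 6.25 in SD, against 4.92, 5.13 and 4.86 in FHH, where it lay below the detection level (1.40 ± 0.09).

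The genes proposed at loci of kidney disease in FHH rats were not called (0 of 4 tested, against 3.31% of all genes). Rab38, a GTPase of vesicle traffic that is defective in Fawn Hooded rats, was at 6.22, 6.30 and 6.19 in SD, against 5.98, 6.21 and 5.92 in FHH (0.20 ± 0.09, limma adjusted p = 0.0881), and the arrays overlapped. The adducin Add3 was at 11.21, 11.23 and 11.21 in SD, against 11.13, 11.06 and 11.09 in FHH (0.13 ± 0.03, limma adjusted p = 0.00935). Dusp5 differed by 0.03 ± 0.04. Shroom3 differed by -0.12 ± 0.04 (limma adjusted p = 0.0399), with 0.27 by another probe set. Add3 and Shroom3 thus missed only the fold limit, and their arrays did not overlap, as for 50.1% of all genes tested. Sorcs1 stayed below the detection level in all pools and was not tested. None of 18 podocyte and glomerular filter genes was called (median -0.09, 14 negative). Nephrin, Nphs1, which forms the slit diaphragm, stood at 7.88, 7.91 and 7.88 in SD, against 8.39, 8.24 and 8.26 in FHH (-0.41 ± 0.05), and Myo1e at -0.34 ± 0.06. Of 12 endothelial genes (16.7% called, against 3.31% of all genes), Nos3 was higher and Vwf, the von Willebrand factor gene, lower in SD. Vwf was at 6.12, 6.19 and 6.24 in SD, against 7.51, 7.51 and 7.44 in FHH (-1.30 ± 0.06). The list median was -0.15.

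Genes of plasma proteins held some of the largest differences in both directions. Gc, the vitamin D binding protein, was at 9.43, 9.46 and 9.38 in SD, against 6.28, 6.16 and 6.13 in FHH, 9.41-fold higher (3.23 ± 0.07, limma adjusted p = 8.81e-12). With its second probe set, which was below the detection level, averaged in, Gc gave 2.03 and was still called. Antithrombin, Serpinc1, was 3.8-fold higher, at 11.14, 11.09 and 11.06 in SD, against 9.21, 9.13 and 9.17 in FHH, and the protease inhibitor Pzp was 3.41-fold higher (1.77 ± 0.05). Albumin, Alb, was lower in SD, at 7.84, 7.86 and 7.95 against 9.63, 9.53 and 9.56 in FHH (-1.69 ± 0.05, or -1.34 by its other detected probe set). The fibrinogen chain Fgb (-0.91 ± 0.06) and Apoe (-0.72 ± 0.04) were also lower, as were, outside the list, the histidine-rich glycoprotein Hrg (-1.91 ± 0.06) and the lipase cofactor Apoc2 (-1.90 ± 0.05). Averaged with its second probe set, which was below the detection level, Apoe was not called (-0.24). Of 17 tested plasma protein genes 4 were higher and 3 lower (median -0.28), and 9 tested liver genes, which share Alb and Serpinc1 with that list, had 2 higher and 1 lower. Complement genes had 2 higher and 3 lower of 16 (median 0.03), with C3 at 0.70 ± 0.08 and Masp1 at -0.73 ± 0.08. The called shares were 41.2% for plasma proteins, 33.3% for liver and 31.2% for complement, against 3.31% of all genes.

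Histocompatibility genes on chromosome 20 gave the largest single value and probe sets that opposed each other. RT1-Bb, the beta chain of a class II molecule, was at 4.41, 4.48 and 4.27 in SD, below the detection level, against 10.75, 10.78 and 10.67 in FHH (-6.34 ± 0.08, limma adjusted p = 1.85e-14). Its other detected probe set ran the opposite way, at 5.23, and with both averaged the gene was not called (-0.56). RT1-Ba, the partner chain, was lower in SD by its brightest probe set (-0.72 ± 0.05), while its other detected probe sets gave -0.02, -0.15 and 4.83. Of the class I genes, RT1-CE10 (-1.02 ± 0.12) and RT1-CE16 (-0.98 ± 0.11) were lower and RT1-T24-4 (0.90 ± 0.06) and RT1-T24-3 (2.17 ± 0.09) higher in SD. RT1-CE12, which lies between RT1-CE16 and RT1-CE10 and was added after its values were seen, was higher in SD, at 10.39, 10.60 and 10.53 against 9.25, 9.59 and 9.47 in FHH (1.07 ± 0.08). The peptide loading chain RT1-DMb was lower, at 9.46, 9.52 and 9.45 in SD, against 10.26, 10.17 and 10.25 in FHH (-0.75 ± 0.04). Of the 21 tested genes in the list of antigen presentation, which holds neither RT1-T24-3 nor RT1-CE12, 1 was higher and 6 were lower (median -0.22). The called share was 33.3%, against 3.31% of all genes. The invariant chain Cd74, which accompanies every class II molecule, differed by -0.01 ± 0.03.

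Macrophage and dendritic cell markers had a median of 0.25, with 15 of 17 positive and 1 called (5.88%, against 3.31% of all genes). Their summed log2 signal was 131.43 to 132.02 on the SD arrays, against 126.72 to 128.04 on the FHH arrays. The low-affinity IgG receptor Fcgr3a was at 6.75, 6.97 and 6.80 in SD, against 5.46, 5.62 and 5.42 in FHH (1.34 ± 0.10). The macrophage markers Cd68 (0.32 ± 0.06) and Adgre1 (0.44 ± 0.07) were not called. In whole kidney RNA, fewer cells of a type and less RNA per cell cannot be told apart. Only 4 lymphocyte and neutrophil markers were tested and none was called, with Cd2 at 0.23 ± 0.08 and S100a9 at -0.21 ± 0.08. None of 23 interferon response genes was called (median 0.11), Ifit1 having the largest difference (-0.53 ± 0.09).

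Markers of tissues that lie against the kidney differed between the pools. Of 13 tested adipocyte markers 8 were lower and none higher in SD (61.5% called, against 3.31% of all genes), with a median of -0.69. Over all 15 measured members the median was -0.59, and 10 of the 13 tested were detected in both pools. Cidea, a lipid droplet protein of brown fat, was at 7.60, 7.66 and 7.49 in SD, against 9.34, 9.20 and 9.34 in FHH (-1.70 ± 0.05), and the brown fat uncoupling protein Ucp1 at 8.02, 7.87 and 7.90 in SD, against 9.35, 9.17 and 9.22 in FHH (-1.31 ± 0.06). The lipoprotein lipase Lpl (-1.48 ± 0.04), adipsin, Cfd (-1.32 ± 0.07), and Fabp4 (-0.81 ± 0.06) were lower as well, whereas adiponectin, Adipoq, was not called (-0.27 ± 0.08). The summed log2 signal of the 13 was 97.14 to 97.72 on the SD arrays, against 106.02 to 106.82 on the FHH arrays, and Lep and Adrb3 stayed below the detection level in all pools. Cox8b, a respiratory chain subunit that is abundant in brown fat, was lower in SD by a similar amount (-1.89 ± 0.11).

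Adrenal cortex markers were called lower in SD for 4 of 7 tested (57.1%, against 3.31% of all genes called), with a median of -1.11. Over all 10 measured members the median was -0.39, and 5 of the 7 tested were detected in both pools. Hsd3b1, a steroidogenic dehydrogenase, was at 5.71, 5.95 and 5.75 in SD, near the detection level, against 8.29, 8.16 and 8.21 in FHH (-2.42 ± 0.07, limma adjusted p = 7.36e-11). Cyp11a1, which makes pregnenolone, was lower (-1.46 ± 0.10) and the cholesterol carrier Star gave -1.11 ± 0.07. The remaining call, Akr1b7, had the means of both pools below the detection level. The summed log2 signal of the 7 was 44.30 to 44.57 on the SD arrays, against 51.55 to 51.83 on the FHH arrays, while Cyp11b1, Cyp17a1 and Nr5a1 were below the detection level in all pools. Of 8 urothelial markers 2 (25%) were lower and none higher, Upk1b (-1.10 ± 0.07) and Upk3a (-0.76 ± 0.06). The sums of the 8 were 54.79 to 55.52 in SD, against 57.58 to 57.92 in FHH.

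Red cell transcripts went the other way. Of 4 tested markers 3 were higher in SD (75% called, against 3.31% of all genes, median 1.06). Over all 7 measured members the median was 0.25. The summed log2 signal of the 4 was 38.80 to 39.30 on the SD arrays, against 35.26 to 35.60 on the FHH arrays. The beta globin Hbb was at 13.45, 13.47 and 13.44 in SD, against 12.57, 12.53 and 12.55 in FHH (0.90 ± 0.04), the globin chaperone Ahsp differed by 1.40 ± 0.07 and the heme synthesis enzyme Alas2 by 1.21 ± 0.07. Hba-a3, an alpha globin, was 4.2-fold higher in SD (2.07 ± 0.08). The erythroid factors Gata1 and Klf1 and the membrane protein Epb42 were below the detection level in all pools.

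Lipid synthesis and matrix genes were lower in SD beside these markers where they were called, with Ccn2 as the exception. Of 19 tested genes of fatty acid and triglyceride synthesis 3 were lower and none higher in SD (median -0.14, 17 negative). The called share was 15.8%, against 3.31% of all genes. The desaturase Scd was at 6.66, 6.75 and 6.57 in SD, against 8.19, 8.14 and 8.27 in FHH (-1.54 ± 0.16), the lipogenic regulator Thrsp at 7.15, 7.09 and 7.03 against 8.56, 8.46 and 8.46 (-1.40 ± 0.08), and Fads1 differed by -0.71 ± 0.04. Of 40 extracellular matrix genes 4 were lower and 1 higher (12.5% called), with a median of 0.01. The small proteoglycans Lum (-1.30 ± 0.07) and Dcn (-0.85 ± 0.04), which are neighbours on chromosome 7, the glycoprotein Tnc (-1.21 ± 0.04) and Postn (-1.17 ± 0.06) were lower, and the growth factor modulator Ccn2 higher (0.66 ± 0.03). Of 11 smooth muscle genes 1 (9.09%), Actg2, was lower (-0.69 ± 0.10). The part of the fat, adrenal, urothelial and red cell markers in the other gene results was not tested.

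**Figure D3:**
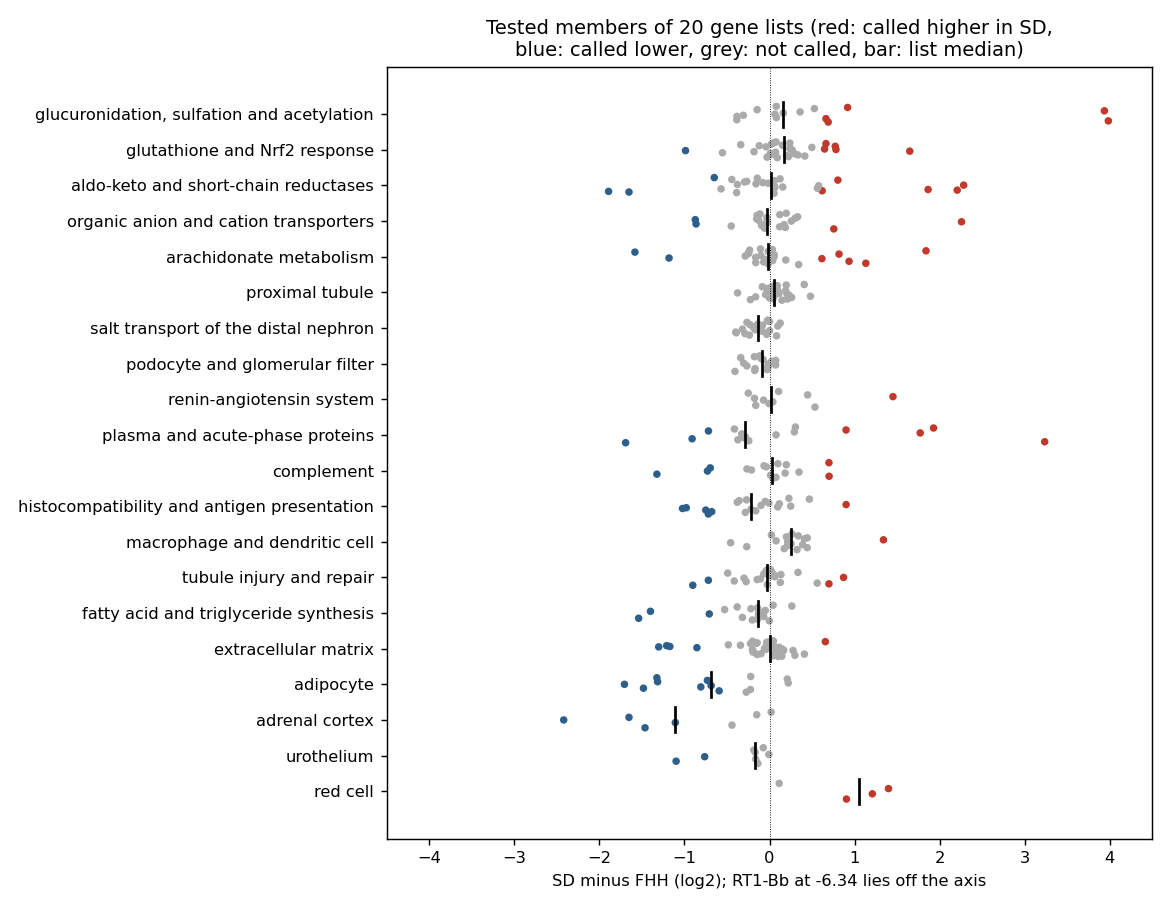
Difference SD minus FHH (log2, x axis) of each tested member of 20 gene lists, with genes called higher in red, called lower in blue, the others grey and the list median as a bar, and RT1-Bb, at -6.34, beyond the axis. The adipocyte and adrenal lists lie furthest to the left with medians of -0.69 and -1.11, the red cell list furthest to the right with 1.06, and the proximal tubule, distal salt transport and podocyte lists hold no called gene. With the measured but untested members included, the adipocyte, adrenal and red cell medians were -0.59, -0.39 and 0.25.

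Tubule injury and repair genes had 2 higher and 2 lower in SD of 23 tested (17.4% called, against 3.31% of all genes), with a median of -0.02. Havcr1, kidney injury molecule 1, was at 6.08, 6.07 and 6.14 in SD, against 6.87, 6.96 and 7.17 in FHH (-0.90 ± 0.08, limma adjusted p = 4.86e-06), so the FHH arrays were higher without overlap. The keratin Krt19 was lower (-0.72 ± 0.04). The trefoil peptide Tff3 was higher, at 11.99, 11.87 and 11.92 in SD, against 11.10, 11.03 and 11.05 in FHH (0.87 ± 0.04). The chaperone clusterin, Clu, was higher by 0.70 ± 0.05, which no longer passed when its probe sets were averaged (0.36). The second probe set of Clu lay below the detection level. The injury marker Lcn2 differed by -0.02 ± 0.04.

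In other gene groups of the nephron and of metabolism the called share was 0% for intercalated cells, 4.17% for amino acid transporters, 6.25% for fatty acid oxidation, 7.14% for principal cells, 10% for sterol synthesis and 11.8% for the urea cycle, against 3.31% of all genes, and no list had more than 2 calls. None of 10 intercalated cell markers was called, although 9 were negative (median -0.24), with the chloride-bicarbonate exchanger Slc26a4 at -0.54 ± 0.05 and the transcription factor Foxi1 at -0.36 ± 0.05. Slc26a4 was called lower when SD replicate 1 was left out (-0.59). Of 14 principal cell and aquaporin genes 1 was higher, Aqp11, at 9.45, 9.38 and 9.36 in SD, against 8.50, 8.45 and 8.55 in FHH (0.90 ± 0.04), and the vasopressin-regulated Aqp2 was not called (-0.30 ± 0.04). The amino acid transporter Slc7a12 was higher (0.81 ± 0.04), the only call of 24 in its list. The urea cycle list had 2 calls of 17, Arg1 lower (-1.0 ± 0.06) and Cps1 higher (1.88 ± 0.13) from FHH arrays of 4.48, 3.83 and 4.18, far below the detection level, and with the other probe set of Cps1 (0.47) averaged in, it gave 1.18. In fatty acid oxidation 2 of 32 were called, Cyp4a8 and the kinase Pdk4 (-0.77 ± 0.05, or -0.33 and not called after averaging probe sets). The second probe set of Pdk4 lay below the detection level. Sterol synthesis had 2 of 20, the isomerase Idi1 higher (0.72 ± 0.05) and the desaturase Sc5d lower (-1.09 ± 0.07), whose other detected probe sets gave 0.42 and -0.40 and which was not called after averaging (-0.36).

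The cell cycle list had 1 call of 29, cyclin D2, Ccnd2, at 8.12, 7.81 and 7.83 in SD, against 9.37, 9.37 and 9.35 in FHH (-1.44 ± 0.07), and a median of -0.05. Of 17 clock genes 1 was lower, Bhlhe40 (-0.66 ± 0.05), and of 17 immediate early genes 1 was higher, Jun (0.69 ± 0.09, or 0.52 and not called after averaging probe sets). The called shares were 3.45% for cell cycle and 5.88% each for the clock and immediate early lists, against 3.31% of all genes. None of 32 genes of oxidative phosphorylation was called (median -0.03), the largest differences being those of Ndufs4 (-0.20 ± 0.04) and Ndufv2 (-0.18 ± 0.03). Neither of the 2 tested skeletal muscle markers, Myh1 and Tnni2, was called.

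Several of the largest differences fell outside these groups. Fam111a, a protease linked to restriction of viruses, was at 6.87, 6.90 and 6.87 in SD, against 10.67, 10.64 and 10.62 in FHH, 13.6-fold lower in SD (-3.76 ± 0.03, limma adjusted p = 8.98e-16). Cryga, a crystallin of the eye lens, was at 6.72, 6.75 and 6.82 in SD, against 10.51, 10.5 and 10.54 in FHH, and both of its detected probe sets gave -3.75. Tmem161a was 3.27-fold higher in SD (1.71 ± 0.11). Mrap, which carries the receptor of adrenocorticotropic hormone to the cell surface, was higher (1.80 ± 0.11), and its neighbour on chromosome 11, the centromere factor Mis18a, was lower (-1.89 ± 0.07). Also lower in SD were Pamr1 (-1.77 ± 0.05), the X-linked Arxes1 (-1.88 ± 0.07) and Oacyl (-1.64 ± 0.07).

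Some called genes were next to each other on the chromosome. In the order of 10877 tested genes with a known place, 31 runs of adjacent called genes held 69 of them. The longest had 3 genes, and in 20 runs all genes had the same direction. How many runs randomly placed calls would give was not tested, so nothing is read from these counts. Same-direction runs included Akr1c1, AKR1C3l1 and Akr1c13, Slco1a1 and Slco1a3, and Dcn and Lum. Opposite directions stood side by side in Mis18a and Mrap, in Gsta3 and Gsta1, and in Akr1b8 and Akr1b10. By chromosome, the called share of tested genes ran from 1.04% on chromosome 6 to 6.27% on chromosome 13, apart from 0 of 2 genes on Y, with 5.91% on chromosome 4, 5.9% on chromosome 11 and 5.81% on chromosome 20, against 3.31% of all genes. Beside these genes, 4345 probe sets without a symbol were tested and 198 (4.56%) were called, 86 higher and 112 lower in SD.

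PCK and FHH.Pkhd1 are a second pair of pools on the SD-derived and FHH backgrounds, and their comparison shares no array with that of SD and FHH. It is not a repeat of that comparison, since both pools carry the mutated segment and PCK is a strain separate from SD. RT1-Bb, for example, averaged 4.39 in SD and 9.81 in PCK. PCK minus FHH.Pkhd1 called 635 genes (5.83%), 319 (2.93%) higher and 316 (2.9%) lower. Of the 361 genes called between SD and FHH, 186 were called the same way there, 95 higher and 91 lower. These are 51.5% of the calls of SD minus FHH and 29.3% of those of PCK minus FHH.Pkhd1. Of the others, 166 were not called and 9 were called the opposite way. The difference between the comparisons was itself called for 154 of the 361, against 546 (5.01%) of all genes tested. The 361 were picked by SD minus FHH, which is a term of this contrast, so nothing is read from that count. Across the 10891 genes, which share arrays within a comparison and are not independent, the differences correlated with r = 0.53 and rho = 0.42.

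Several transcripts had differences of similar size in both pairs. Nat8b gave 4.15 in PCK minus FHH.Pkhd1 against 3.94 in SD minus FHH, Mrap 1.89 against 1.80, Mis18a -2.05 against -1.89, Agtrap 1.31 against 1.45, Ptger1 -1.70 against -1.58 and Cryga -3.36 against -3.75. The tests of the difference between the comparisons gave limma adjusted p = 0.675 for Mrap, 0.25 for Mis18a, 0.0876 for Agtrap, 0.505 for Ptger1, 0.0137 for Nat8b and 0.00341 for Cryga. The adipocyte list had 7 of 13 lower in PCK minus FHH.Pkhd1 (median -0.72), and the adrenal list 5 of 7 (median -2.04). Of all genes 2.9% were called lower there. The red cell and urothelial lists had none called there, with medians of -0.28 and 0.11.

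Another set had its lowest levels in FHH.Pkhd1. Ugt2b35 averaged 11.10 in SD and 7.12 in FHH, and 9.24 in PCK and 3.78 in FHH.Pkhd1. Slco1a1 averaged 10.23 in SD and 7.97 in FHH, and 8.57 in PCK and 3.78 in FHH.Pkhd1. Akr1c1, Akr1c13, Dhrs7l1 and Pzp had the same order of pools, SD over PCK over FHH over FHH.Pkhd1. Of the 361 called genes 64 had this order of means and 61 the reverse order. A call already sets the order of SD and FHH, and these orders were not counted over all genes tested. Nothing is therefore read from these counts. The differences of neighbouring pools in this order were not tested for each gene.

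The 9 genes called in opposite directions, listed after their values were seen, were Fam111a, Fetub, Havcr1, Pigr and, higher in SD, Jun, P2rx4, Idi1, Cyp26b1 and Klk1c4. Fam111a averaged 11.88 in PCK and 10.82 in FHH.Pkhd1, so that SD, at 6.88, was the only pool below 10. Havcr1 averaged 9.25 in PCK and 6.07 in FHH.Pkhd1. Klk1c4 averaged 6.17 in PCK and 7.34 in FHH.Pkhd1. SD also stood apart from the 3 other pools for Gc, at 9.43 against 6.19 in FHH, 6.61 in PCK and 6.13 in FHH.Pkhd1, and for Alox15, at 8.17 against 6.33, 6.57 and 6.64 in the same order.

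**Figure D4:**
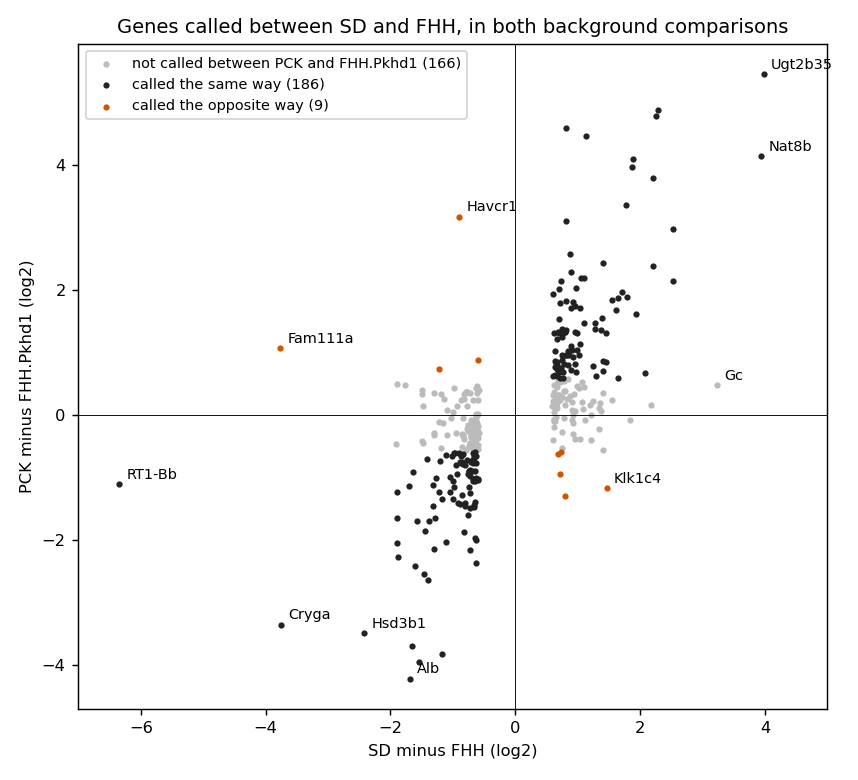
PCK minus FHH.Pkhd1 (log2, y axis) against SD minus FHH (log2, x axis) for the 361 genes called between SD and FHH. The 186 genes called the same way are black, the 166 not called are grey and the 9 called the opposite way, such as Havcr1 and Fam111a, are orange.

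**Figure D5:**
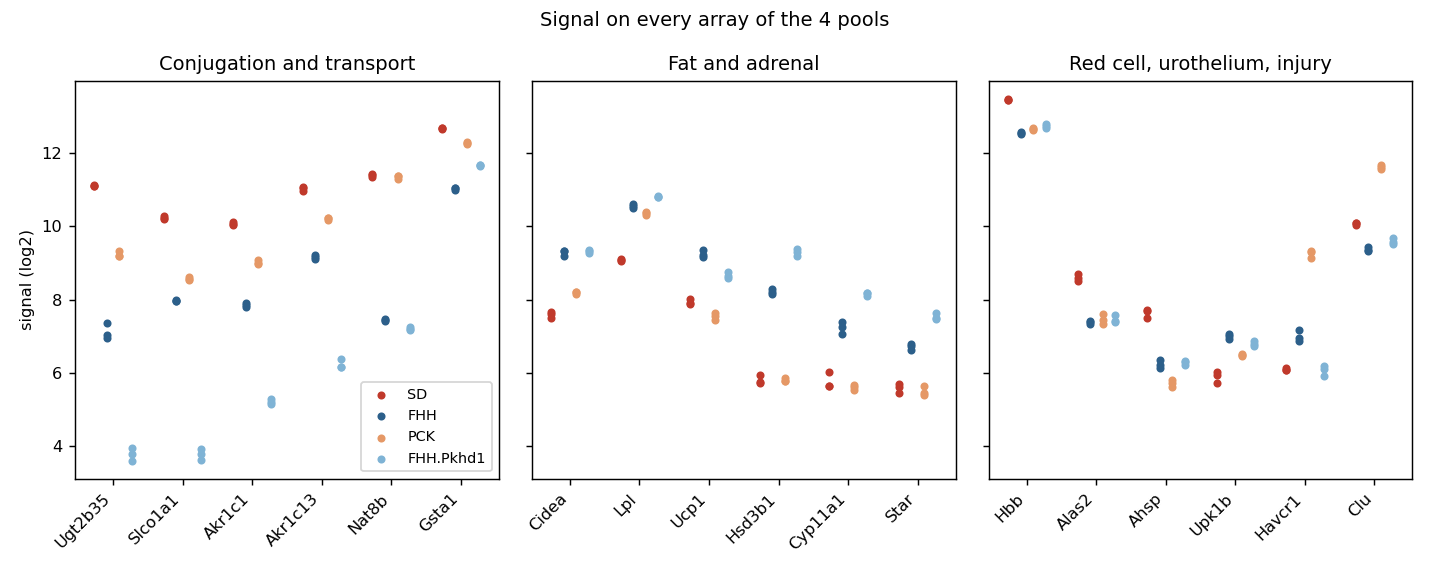
Log2 signal (y axis) on each array of the 4 pools, from left SD, FHH, PCK and FHH.Pkhd1, for 18 genes. Ugt2b35, Slco1a1, Akr1c1 and Akr1c13 are lowest in FHH.Pkhd1, the fat and adrenal transcripts other than Lpl are lower in SD and PCK, and the red cell transcripts are highest in SD.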

How the data were processed

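RNA of 4 kidney pools, 1 per strain, was measured on 12 arrays. Per the submitters' processing notes, RMA and Partek 6.2 made the deposited log2 signals, which were used unchanged. No source used here states whether 1 normalization covered all arrays. Array medians were 6.41 to 6.46 (values 2.38 to 14.41). Of 31099 probe sets, 57 were controls, 20826 had 1 symbol, 436 several and 9780 none. Symbols were updated through GRCr8 gene records (20812 matched), and each of 14217 genes was represented by its brightest probe set on average.

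limma 3.58.1 (R 4.3.3) fitted 1 mean per strain over all 12 arrays, with eBayes (4.01 prior and 8 residual degrees of freedom) and Benjamini-Hochberg adjustment over all 10891 genes tested. The number of arrays limits the precision. The fit was tested on simulated data. Controls were compared by exact permutation in scipy 1.17.1. The gene lists, comparisons and rules were chosen with earlier results of these data known. Named genes were the 15 largest called differences each way, up to 5 called members of each list (or the 2 largest where none was called), the FHH candidate genes, 12 genes in runs of neighbouring calls, and the 3 most abundant called genes each way. Lrp2, Slc22a6, Akr1b10, Cyp4a3, Cyp2c23, Agt, Agtr1a, RT1-Ba, Cd74, Cd68, Adgre1, Adipoq, Lcn2, Aqp2 and the genes so marked in the text were chosen after their values were seen. Alternatives covered filter, probe set, fold limit, variance model, arrays fitted, normalization, replicate block and each array left out.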

Additional observations from a re-analysis of the deposited data

Results flagged for a closer look

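A test of the difference between SD minus FHH and PCK minus FHH.Pkhd1 was run in the same limma fit for every gene. The difference passed an adjusted p of 0.05 and 1.5-fold for 546 of 10891 genes (5.01%). Among the 30 genes with the largest differences between SD and FHH, 12 had a contrast of at least 4-fold, as had 27 of all genes tested (0.248%). These 30 were picked by the size of SD minus FHH, which is a term of the contrast, so nothing is read from the count. It is given as SD minus FHH less PCK minus FHH.Pkhd1, on the log2 scale. For RT1-Bb it was -5.23, for Fam111a -4.83, for Akr1b8 -2.39 and for Pamr1 -2.25, the difference of SD and FHH being the more negative. The value of RT1-Bb rests on 1 probe set, since its other detected probe set gave 5.23 for SD minus FHH and averaging them removed the call (-0.56). For Gc it was 2.76 and for RT1-T24-3 2.02, with SD standing above the 3 other pools. For Dhrs7l1 it was -2.61, for Slco1a1 -2.54, for Cps1 -2.22 and for Akr1c13 -2.11, since PCK and FHH.Pkhd1 lay further apart than SD and FHH. For Alb it was 2.53 and for Akr1b7 2.04, again with the larger difference between PCK and FHH.Pkhd1.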

How the results depend on the processing

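The counts of called genes depended on the fold limit. With at least 2-fold, 114 genes were called, 59 higher and 55 lower in SD, 56 of them the same way in PCK minus FHH.Pkhd1, and 170 differed between the comparisons. With no fold limit these counts were 4038, 1376, 2662, 2207 and 3344. Under the other alternatives the total ranged from 297, with both pools above the detection level, to 181 higher and 211 lower with no filter, against 361. The mean of each gene's probe sets called 317 genes, 300 of them among the 361, and centring each array on its median called 195 higher and 158 lower, 328 of the total among the 361. Leaving out 1 array at a time gave 357 to 372 calls (165 to 179 higher, 179 to 197 lower), of which 344 to 353 were among the 361, with 183 to 189 called the same way in both comparisons and 531 to 565 differing between them. It moved the poly-A difference to -0.68 to -0.60, the hybridization controls to -0.37 to -0.03, beta-actin to -0.29 to -0.27, GAPDH to -0.23 to -0.18 and hexokinase to -0.12 to 0.06. The fit with the replicate block called 361 genes, the same ones, and changed no call of a named gene. Deviations of same-numbered SD and FHH arrays correlated at 0.34, 0.03 and 0.12, so the numbers were not taken to pair the arrays. Of the values of named genes counted under the alternatives, 1981 kept their call, 56 lost it, 17 gained it and 0 reversed. These counts do not hold a value for every named gene under every alternative. RT1-Bb, for example, was not tested where both pools had to reach the detection level. The poly-A difference was -0.68 with the median of its probe sets. Arrays of 1 pool cannot show the spread between animals, and signals near 5.75 are poorly resolved. Only 36 of the 90 other detected probe sets of called genes also differed by 1.5-fold in the same direction, and 76 had the same sign.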

Other observations

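The genes Ang and Rnase4, secreted ribonucleases that lie side by side on chromosome 15 and were picked after their values were seen, differed by almost the same amount. Ang was at 7.46, 7.49 and 7.45 in SD, against 6.84, 6.78 and 6.96 in FHH (0.61 ± 0.06). Rnase4 was at 8.72, 8.69 and 8.69 in SD, against 8.14, 8.02 and 8.08 in FHH (0.62 ± 0.05). In PCK minus FHH.Pkhd1 neither was called, at -0.41 and -0.09.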
